A study of Mus musculus with 17 samples.

Results

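The 8 genes described here, Neurog2, Hes6, Sox4, Sox11, Tubb3, Map1b, Dcx and Elavl3, are proneural and early neuronal genes, chosen by name from the 49671 genes of the deposited count tables. The choice was made with earlier results of these data known. These genes follow the path from a dividing neural progenitor to a young neuron. In the neural tube, proneural basic helix-loop-helix (bHLH) factors such as Neurog2 bind E-box sequences with E-protein partners and start neuronal differentiation, while Notch signalling through Hes1, and the Id proteins, hold progenitors back. Sox4 and Sox11 then switch on pan-neuronal genes such as Tubb3, and the new neuron builds its cytoskeleton with Tubb3, Map1b and Dcx and its RNA programme with Elavl3. In the floor plate, the ventral midline that FOXA2 marks, neurogenesis is known to be limited in the spinal cord.

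The cells were mouse R1 embryonic stem cells, an established line, carrying FOXA2-Venus, a fluorescent reporter of FOXA2, in every group, in a study of neural tube organoids. Libraries are labelled FOXA2-positive or FOXA2-negative, and how the fractions were divided is not given in the labels. All groups received retinoic acid (RA) for 18 hours, and the RA groups are labelled with that time only. In the BMP4 groups 6 hours without treatment came next, then BMP4 (a bone morphogenetic protein) for 8 hours. The LDN groups had the same 6 hours and then 8 hours of an agent named only as LDN. The 17 libraries comprised 3 in each of 5 groups and 2, numbered 2 and 3, in FOXA2-positive LDN. Because the RA label gives no later time, treatment and elapsed time cannot be told apart in a comparison of BMP4 or LDN with RA. No label says that the libraries of a group are separate cultures, and the spread that the p-values rest on may be technical.

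Libraries held between 8435845 and 10796136 counts assigned to genes. Levels are given as CPM, each gene's counts scaled to a common library total, with TMM factors that correct for differences in library composition. Foxa2 itself averaged 0.31, 0.78 and 1.85 CPM in the FOXA2-negative and 23.0, 25.9 and 42.0 CPM in the FOXA2-positive fraction of RA, BMP4 and LDN libraries, in the direction of the labels, while the floor plate marker Shh was at 0 in 15 of the 17 libraries. Both RA libraries numbered 1 stood apart by their mitochondrial share of counts, 6.94% and 7.43%, against at most 4.81% in the others. Among markers of differentiated neurons, Stmn2, Nefl and Nefm had counts in every library (2.04 to 58.9 CPM), but synaptic and transmitter genes were scarce. Snap25 and Syt1 were each at 0 in 12 of 17 libraries, Slc17a6 in 15 and Gad1 in 13, and no library exceeded 3.40 CPM for any of these 4. In bulk libraries, fewer cells of a type and less RNA per cell cannot be told apart.

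The main contrast was FOXA2-positive minus FOXA2-negative. Averaged over the 3 treatments, Sox4, Sox11 and Map1b were higher and Tubb3 and Elavl3 lower in FOXA2-positive cells, and Hes6 and Dcx did not pass the test. Thus 5 of the 7 tested genes passed edgeR's quasi-likelihood test at a Benjamini-Hochberg adjusted p below 0.05, where 7.62% of all 17813 tested genes did (3.12% higher and 4.5% lower). The median log2 fold change of the 7 was 0.56, against -0.03 for all tested genes. Members were chosen with earlier results of these data known, so neither contrast with all genes is independent. By mean level, the 5 called genes stood between percentiles 48.3 (Elavl3) and 96.9 (Map1b) of tested genes, and the shares were not matched for level. Within single treatments fewer passed. In RA it was Sox4 and Tubb3, with 1.19% of all genes called, and Sox4 alone in BMP4 and in LDN, with 0.921% and 0.994% called. The 3 single-treatment comparisons use separate libraries, and the average combines them.

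**Figure D1:**
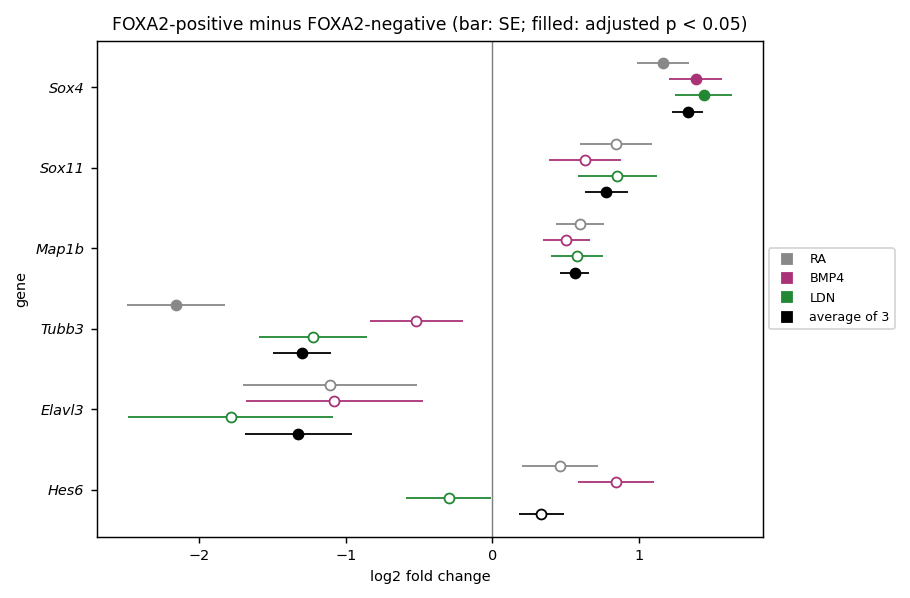
Log2 fold change of FOXA2-positive minus FOXA2-negative cells for 6 genes, within RA, BMP4 and LDN and averaged over them. Bars are standard errors and filled points have an adjusted p below 0.05. Sox4 is filled in all 4 estimates (1.16 to 1.44), and Tubb3 and Elavl3 lie left of 0 in every treatment.

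Proneural factors come first in the order of the pathway. Neurog2, the proneural factor of the set, was almost absent. It had 5 counts in all, 1 and 2 in the RA FOXA2-negative libraries numbered 1 and 2 and 2 in the BMP4 FOXA2-negative library numbered 1, and 0 in the other 14. No FOXA2-positive library and no LDN library held a Neurog2 count. A count of 0 over a whole group allows up to 3 counts, which is 0.102 CPM in RA FOXA2-positive cells and 0.159 CPM in LDN FOXA2-positive cells. These limits cover counting error only. Neurog2 did not pass the filter on low counts and was not tested, and a difference between fractions was not detectable at this depth.

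Hes6 encodes a Hes-family protein that counters Hes1 and favours neuronal differentiation. In RA its levels were 30.9, 27.9 and 37.2 CPM in FOXA2-negative and 36.0, 48.2 and 47.9 CPM in FOXA2-positive libraries, in order of library number. In BMP4 they were 30.6, 16.3 and 32.8 CPM in FOXA2-negative and 54.9, 35.9 and 52.2 CPM in FOXA2-positive libraries. In LDN they were 53.0, 53.2 and 51.5 CPM in FOXA2-negative libraries and 49.4 and 36.0 CPM in FOXA2-positive libraries. The fractions overlapped in RA. In BMP4 every FOXA2-positive library was above every FOXA2-negative one, and in LDN both were below. Of all tested genes, 14.8% and 27.8% had no overlap in these 2 treatments. None of these differences passed. The log2 fold changes were 0.46 ± 0.26 (SE, adjusted p = 0.545 by edgeR) in RA, 0.84 ± 0.26 (adjusted p = 0.155) in BMP4 and -0.30 ± 0.29 (adjusted p = 0.739) in LDN, with an average of 0.33 ± 0.15 (adjusted p = 0.219).

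Sox4 and Sox11 are closely related SoxC transcription factors, each encoded by a single exon, that act downstream of proneural factors. Sox4 (ENSMUSG00000076431) lies on the minus strand of chromosome 13 at 28948919-28953713 in mm10, and Sox11 (ENSMUSG00000063632) on the minus strand of chromosome 12 at 27334264-27342574. Sox4 showed the clearest pattern of the set. In RA it was at 130, 82.6 and 112 CPM in FOXA2-negative and 286, 211 and 232 CPM in FOXA2-positive libraries. In BMP4 the values were 76.3, 91.7 and 67.5 CPM against 190, 214 and 211 CPM. In LDN they were 111, 148 and 107 CPM against 355 and 310 CPM. Every FOXA2-positive library was above every FOXA2-negative library of its treatment, and the lowest FOXA2-positive value of the series, 190 CPM in BMP4, was above the highest FOXA2-negative value, 148 CPM in LDN.

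The Sox4 means were 108 ± 24.2 against 243 ± 38.7 CPM in RA (SD, n = 3 and 3), 78.5 ± 12.2 against 205 ± 13.3 CPM in BMP4 (n = 3 and 3) and 122 ± 22.6 against 332 ± 31.8 CPM in LDN (n = 3 and 2). Sox4 rose in FOXA2-positive cells by a log2 fold change of 1.16 ± 0.18 in RA (SE, adjusted p = 0.000572 by edgeR), 1.39 ± 0.18 in BMP4 (adjusted p = 0.000256) and 1.44 ± 0.19 in LDN (adjusted p = 0.000132). The average was 1.33 ± 0.11 (adjusted p = 6.3e-09), and Sox4 stayed called in each treatment whichever single library was left out. An antisense gene, Gm26735, shares 2616 of the 4795 exonic bases of Sox4. Without a stated strand setting their reads cannot be told apart, and Gm26735 was assigned 1047 counts in all against 28679 for Sox4.

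Sox11 differed in the same direction with more spread. In RA it was at 115, 69.6 and 70.5 CPM in FOXA2-negative and 196, 123 and 139 CPM in FOXA2-positive libraries. In BMP4 the values were 104, 53.3 and 58.7 CPM against 84.9, 141 and 109 CPM, which overlap. In LDN they were 76.7, 101 and 83.7 CPM against 156 and 158 CPM. In both RA fractions and in the BMP4 FOXA2-negative fraction, the library numbered 1 was the highest for Sox11. The log2 fold changes were 0.84 ± 0.25 in RA (SE, adjusted p = 0.109 by edgeR), 0.63 ± 0.25 in BMP4 (adjusted p = 0.315) and 0.85 ± 0.27 in LDN (adjusted p = 0.159). Only the average passed, and Sox11 rose by 0.78 ± 0.15 (adjusted p = 0.00105). Without the RA FOXA2-negative library numbered 1, Sox11 also passed in RA, at 1.13 (adjusted p = 0.0265, with a range of 0.00229 to 0.411 over all alternatives tried).

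The bases just upstream of the Sox4 and Sox11 genes are shown because these 2 related factors differed between fractions in the same direction, with those upstream of Elavl3 and Tubb3, which differed the other way. They are from the RefSeq table for GRCm38.p6, read 5′ to 3′ on the strand of the gene, and stop before the annotated start of transcription. Capitals mark the E-box CANNTG, the sequence class that bHLH factors bind, and CCAAT, which reads ATTGG on the other strand.
Sox4, chr13:28953714-28953949, minus strand: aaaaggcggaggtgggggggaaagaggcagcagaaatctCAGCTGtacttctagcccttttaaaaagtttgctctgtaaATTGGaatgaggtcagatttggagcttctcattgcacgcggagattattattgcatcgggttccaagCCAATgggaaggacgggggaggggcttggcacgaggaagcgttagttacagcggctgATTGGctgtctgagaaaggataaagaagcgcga
Sox11, chr12:27342719-27342968, minus strand: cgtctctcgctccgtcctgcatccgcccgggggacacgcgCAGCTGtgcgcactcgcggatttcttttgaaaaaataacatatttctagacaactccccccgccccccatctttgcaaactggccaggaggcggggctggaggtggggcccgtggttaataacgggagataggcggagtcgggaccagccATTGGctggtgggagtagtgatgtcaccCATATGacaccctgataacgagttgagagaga
Elavl3, chr9:22052024-22052273, minus strand: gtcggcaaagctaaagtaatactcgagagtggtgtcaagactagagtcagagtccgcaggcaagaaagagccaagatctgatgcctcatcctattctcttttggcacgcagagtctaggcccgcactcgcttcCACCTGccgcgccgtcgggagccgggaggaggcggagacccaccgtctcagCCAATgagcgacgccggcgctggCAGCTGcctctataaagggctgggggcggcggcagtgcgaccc
Tubb3, chr8:123411303-123411423, plus strand: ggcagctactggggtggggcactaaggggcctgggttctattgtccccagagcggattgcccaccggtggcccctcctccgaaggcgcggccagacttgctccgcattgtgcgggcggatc
The form CAGCTG, which is 1 kind of CANNTG and reads the same on both strands, occurs once upstream of Sox4, of Sox11 and of Elavl3. The Tubb3 stretch holds neither motif, but at 121 bases it is shorter than the others, which have 236 to 250. The whole RefSeq window of Tubb3 holds 1 CCAAT. That of Map1b, also higher in FOXA2-positive cells but not shown, holds 1 CANNTG and neither CAGCTG nor CCAAT. Both RefSeq windows of Hes6, which was not called between fractions, hold 1 CAGCTG. Among all 32851 RefSeq windows from 250 bases before to 50 bases after a start, 16.3% hold CAGCTG, 72.3% CANNTG and 37.4% CCAAT on either strand. These windows are longer than the stretches shown. A match describes letters in a window and is not a binding site.

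The cytoskeletal genes did not move together. Tubb3 (ENSMUSG00000062380), which encodes the neuronal class III beta-tubulin, lies on the plus strand of chromosome 8 at 123411424-123422015 in mm10. In RA it was at 34.2, 37.1 and 44.0 CPM in FOXA2-negative and 7.74, 8.16 and 9.92 CPM in FOXA2-positive libraries. In BMP4 the values were 33.0, 28.4 and 24.6 CPM against 21.4, 21.4 and 17.2 CPM. In LDN they were 37.1, 56.2 and 35.8 CPM against 9.28 and 27.7 CPM. No FOXA2-positive library reached the FOXA2-negative libraries of its own treatment, but the gap ranged from wide in RA to narrow in BMP4, and the 2 LDN FOXA2-positive libraries differed from each other.

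The Tubb3 means were 38.4 ± 5.05 against 8.61 ± 1.16 CPM in RA (SD, n = 3 and 3), 28.7 ± 4.22 against 19.99 ± 2.45 CPM in BMP4 (n = 3 and 3) and 43.0 ± 11.5 against 18.5 ± 13.02 CPM in LDN (n = 3 and 2). Tubb3 was lower in FOXA2-positive cells by a log2 fold change of -2.16 ± 0.33 in RA (SE, adjusted p = 0.000626 by edgeR) and -1.30 ± 0.20 on average (adjusted p = 7.47e-05). In BMP4 it was -0.52 ± 0.32 (adjusted p = 0.571) and in LDN -1.23 ± 0.37 (adjusted p = 0.129). Without the LDN FOXA2-positive library numbered 3, the LDN value was -2.22 (adjusted p = 0.0192, the lowest of a range up to 0.702 over alternatives), and without the one numbered 2 it was -0.62 (adjusted p = 0.702), with the lone remaining library assumed to vary like the other groups. The RA value was -2.16 (adjusted p = 0.0106) without both RA libraries numbered 1.

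Tubb3 lies on a chromosome whose genes were lower as a whole in FOXA2-positive cells. The 407 genes of chromosome 8 with a mean of at least 20 CPM had median log2 fold changes of -0.31 in RA, -0.30 in BMP4 and -0.27 in LDN. Among the 612 genes of chromosome 8 with a mean of at least 5 CPM, Tubb3 ranked 7 from the lowest in RA, 163 in BMP4 and 29 in LDN. The part of the chromosome in the Tubb3 result was not tested.

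Map1b (ENSMUSG00000052727, minus strand of chromosome 13, 99421446-99516540) encodes a microtubule-associated protein of growing axons. In RA it was at 152, 201 and 200 CPM in FOXA2-negative and 235, 277 and 327 CPM in FOXA2-positive libraries. In BMP4 the values were 206, 215 and 271 CPM against 342, 327 and 312 CPM. In LDN they were 270, 400 and 360 CPM against 534 and 492 CPM. FOXA2-positive libraries were above all FOXA2-negative libraries of their treatment in each case, by a similar ratio. The log2 fold changes were 0.60 ± 0.16 in RA (SE, adjusted p = 0.0726 by edgeR), 0.50 ± 0.16 in BMP4 (adjusted p = 0.181) and 0.58 ± 0.18 in LDN (adjusted p = 0.138). Map1b rose on average by 0.56 ± 0.10 (adjusted p = 0.000395). Without the RA FOXA2-positive library numbered 1 it also passed in RA, at 0.71 (adjusted p = 0.0426, range over alternatives 0.00778 to 0.361). Deviations of same-numbered RA libraries of the 2 fractions correlated at 0.59 for number 1, 0.24 for number 2 and 0.28 for number 3. Differently numbered RA libraries reached 0.24. Number 1 stood clearly apart, and through the group means its deviation also moves numbers 2 and 3. Whether numbers 2 and 3 pair is therefore not decided by these values. With the library number as a block within treatment, 4 genes of the set passed in RA. Map1b (adjusted p = 0.00778 by edgeR) and Sox11 (adjusted p = 0.0464) joined Sox4 and Tubb3. The block raised the calls over all tested genes in RA from 212 to 362.

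Dcx, the doublecortin gene of migrating neurons, had 63 counts in all and was at 0 in 11 of 17 libraries. The LDN FOXA2-positive library numbered 2 held 29 counts (2.75 CPM) and the BMP4 FOXA2-positive library numbered 2 held 20 (2.09 CPM), while the other libraries of those groups were at 0. The RA libraries numbered 1 held 4 counts (FOXA2-negative) and 8 counts (FOXA2-positive), and 2 further libraries held 1 count each. Dcx passed the filter through single libraries and no comparison of it passed (adjusted p = 0.245 for the average by edgeR).

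**Figure D2:**
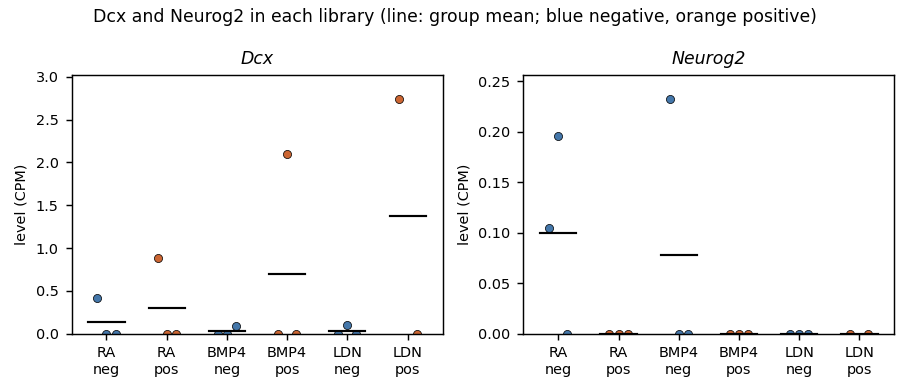
Level of Dcx and Neurog2 in CPM in each of the 17 libraries, with lines at group means. Dcx reaches 2.75 CPM in 1 library of LDN FOXA2-positive cells and is at 0 in the other, and Neurog2 has counts in 3 libraries, all FOXA2-negative.

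Elavl3 (ENSMUSG00000003410, minus strand of chromosome 9, 22015005-22052023) encodes the neuronal RNA-binding protein HuC. In RA it was at 5.96, 16.1 and 13.6 CPM in FOXA2-negative and 6.08, 5.63 and 4.81 CPM in FOXA2-positive libraries. In BMP4 the values were 4.77, 4.73 and 14.2 CPM against 1.61, 4.71 and 4.94 CPM. In LDN they were 18.6, 12.2 and 21.1 CPM against 8.14 and 1.81 CPM. The fractions overlapped in RA and BMP4 and were apart in LDN. In RA and BMP4 the higher FOXA2-negative mean came from 2 and from 1 of the 3 libraries. The log2 fold changes were -1.11 ± 0.60 in RA (SE, adjusted p = 0.519 by edgeR), -1.08 ± 0.60 in BMP4 (adjusted p = 0.523) and -1.79 ± 0.70 in LDN (adjusted p = 0.309). Single libraries moved the Elavl3 values. The LDN value was -3.24 without the FOXA2-positive library numbered 2 and -1.09 without the one numbered 3, and the BMP4 value was -0.34 without the FOXA2-negative library numbered 3 and -0.71 without the FOXA2-positive library numbered 1.

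On average Elavl3 was lower in FOXA2-positive cells by -1.32 ± 0.37 (adjusted p = 0.0245 by edgeR), the weakest of the 5 calls. The Elavl3 call was lost without the RA FOXA2-negative library numbered 2 (adjusted p = 0.0555), the BMP4 FOXA2-negative library numbered 3 (0.0684), the LDN FOXA2-negative library numbered 3 (0.0551) or the LDN FOXA2-positive library numbered 3 (0.116). Over all alternatives the Elavl3 adjusted p ranged from 0.00778 to 0.116.

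**Figure D3:**
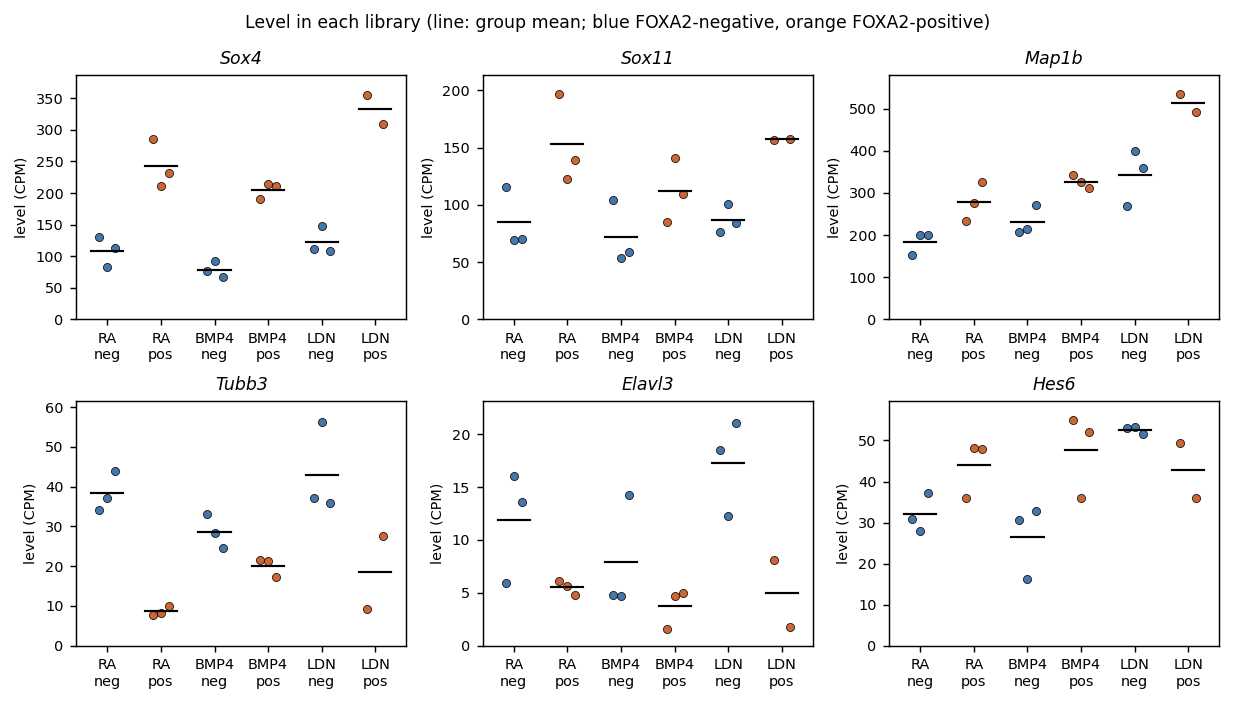
Level of 6 genes in CPM in each library of the 6 groups, with FOXA2-negative libraries in blue, FOXA2-positive in orange and lines at group means. Sox4 separates the fractions in every treatment, Tubb3 is lowest in RA FOXA2-positive cells (8.61 CPM on average), and Map1b is highest in LDN FOXA2-positive cells.

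Counting groups that do not overlap gave a wider picture with its own background. In RA, 4 of the 7 tested genes had no overlap between fractions (Map1b, Sox4 and Sox11 above, Tubb3 below), where 15.2% of all tested genes did. In BMP4 it was again 4 (Map1b, Sox4 and Hes6 above, Tubb3 below), against 14.8% of all genes. In LDN, with only 2 FOXA2-positive libraries, it was 6 (Map1b, Sox4 and Sox11 above, Tubb3, Elavl3 and Hes6 below), against 27.8%. Map1b, Sox4 and Tubb3 were separated in all 3 treatments.

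Levels can be compared between genes only per length, here as CPM per kilobase of exon. In this measure Sox4 was the highest of the set in 5 of the 6 groups, from 16.4 in BMP4 FOXA2-negative to 69.3 in LDN FOXA2-positive cells. The exception was LDN FOXA2-negative, where Hes6 averaged 29.1, Sox4 25.5, Tubb3 23.0 and Map1b 21.7 CPM per kilobase. In RA FOXA2-negative cells Sox4 (22.6) and Tubb3 (20.6) were neighbours whose ranges over libraries overlapped, while in RA FOXA2-positive cells Sox4 was at 50.7 and Tubb3 at 4.61. Elavl3 stayed between 0.54 and 2.51 CPM per kilobase, and Dcx and Neurog2 at or below 0.11.

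Between treatments few members passed. In cells of either fraction, LDN minus RA had 1 of the 7 tested genes called, Map1b, against 0.0393% of all genes in FOXA2-negative and 0.208% in FOXA2-positive cells. Map1b averaged 185 ± 27.8 CPM in RA and 343 ± 66.9 CPM in LDN FOXA2-negative cells (SD, n = 3 and 3), and 279 ± 46.2 against 513 ± 30.1 CPM in FOXA2-positive cells (n = 3 and 2). The groups did not overlap in either fraction, a separation that 12.3% and 26% of all genes showed. Map1b rose by a log2 fold change of 0.90 ± 0.16 in FOXA2-negative cells (SE, adjusted p = 0.0242 by edgeR) and 0.88 ± 0.18 in FOXA2-positive cells (adjusted p = 0.029).

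Sox4 in FOXA2-positive cells was also higher in both LDN libraries than in all RA libraries, at 0.45 ± 0.19 (adjusted p = 0.464 by edgeR), a separation that 26% of all genes showed.

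Both Map1b calls depended on single libraries. In FOXA2-negative cells the Map1b call was lost without the RA library numbered 1 (adjusted p = 0.151), 2 (0.069) or 3 (0.0672), or the LDN library numbered 2 (0.222) or 3 (0.138). In FOXA2-positive cells it was lost without the RA library numbered 1 (0.182) or 2 (0.0809), or either LDN library (0.188 and 0.161). Without both RA libraries numbered 1, which had the highest mitochondrial shares, the log2 fold changes were 0.77 in each fraction (adjusted p = 0.0914 and 0.0548). Over all alternatives the Map1b adjusted p ranged from 0.000227 to 0.352 in FOXA2-negative and from 0.00102 to 0.188 in FOXA2-positive cells.

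In BMP4 minus RA and BMP4 minus LDN, none of the 7 tested genes passed in either fraction. For BMP4 minus RA, 0.0786% of all genes were called in each fraction, and 1 member had an unadjusted p below 0.05 in each, where 1311 and 998 of the 17813 tested genes did. Map1b differed by 0.32 (adjusted p = 0.672 by edgeR) and 0.23 (adjusted p = 0.875) in log2 terms. In FOXA2-negative cells all 3 BMP4 libraries were above the RA libraries for Map1b and below them for Tubb3, where 10.5% of all genes had no overlap. For BMP4 minus LDN, 0.196% of all genes were called in FOXA2-negative and 0.32% in FOXA2-positive cells, and 3 and 2 members had an unadjusted p below 0.05, where 1258 and 1312 of the 17813 tested genes did. DESeq2 called 0 members in these comparisons except 1, Map1b, in BMP4 minus LDN of FOXA2-positive cells (adjusted p = 0.045, range over alternatives 0.0381 to 0.528). These comparisons share groups with each other and with LDN minus RA. Sox4 was lower in BMP4 than in LDN by log2 values of -0.64 ± 0.18 (FOXA2-negative, SE, adjusted p = 0.237 by edgeR) and -0.70 ± 0.19 (FOXA2-positive, adjusted p = 0.181), with no overlap of libraries in either fraction, and Map1b by -0.57 ± 0.16 (adjusted p = 0.25) and -0.65 ± 0.18 (adjusted p = 0.168). Groups that do not overlap made up 11.2% and 22.4% of all genes in these 2 comparisons.

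Hes6 and Tubb3 gave the other treatment values of size, none past the threshold. Hes6 in FOXA2-negative cells averaged 26.6 ± 8.94 CPM in BMP4, 32.0 ± 4.74 CPM in RA and 52.6 ± 0.96 CPM in LDN (SD, n = 3 each). All LDN libraries were above all of the others. In these cells 12.3% of all genes had no overlap for LDN minus RA and 11.2% for BMP4 minus LDN. The log2 values were 0.72 ± 0.26 for LDN minus RA (SE, adjusted p = 0.619 by edgeR) and -0.98 ± 0.26 for BMP4 minus LDN (adjusted p = 0.178). Tubb3 in FOXA2-positive cells was 1.21 ± 0.33 higher in log2 terms in BMP4 than in RA (adjusted p = 0.371), without overlap, which 11.8% of all genes showed, and 1.09 ± 0.36 higher in LDN than in RA (adjusted p = 0.266), where the libraries overlapped. Without the LDN FOXA2-positive library numbered 3 that Tubb3 value was 0.11 (adjusted p = 1.0), and without the one numbered 2 it was 1.69 (adjusted p = 0.0526). Elavl3 in FOXA2-negative cells was at -1.12 ± 0.59 for BMP4 minus LDN (adjusted p = 0.717), and Sox11 in FOXA2-positive cells at -0.49 ± 0.27 (adjusted p = 0.707).

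**Figure D4:**
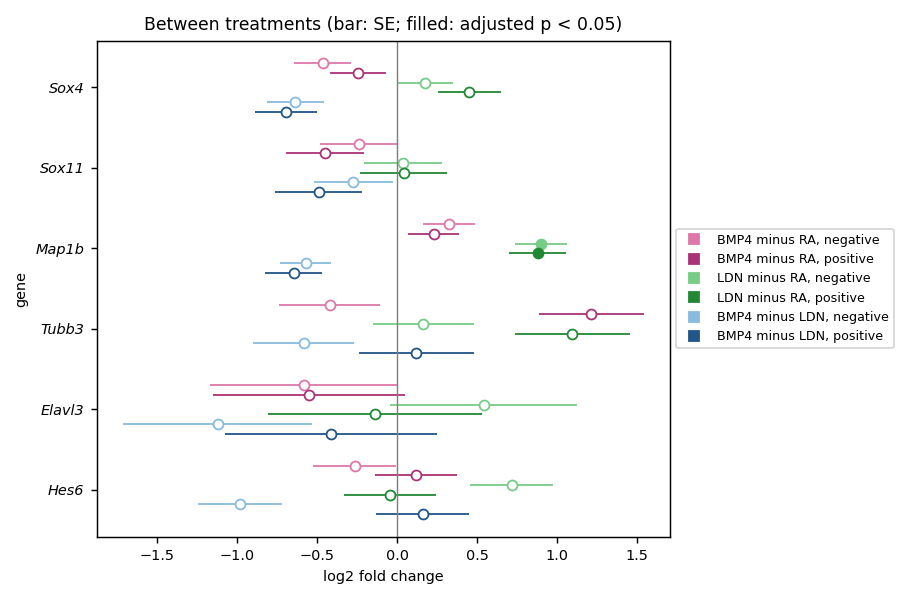
Log2 fold change between treatments within each fraction for 6 genes, with standard errors as bars and filled points for an adjusted p below 0.05. Map1b in LDN minus RA (0.90 and 0.88) has the only filled points, and all 6 genes lie left of 0 for BMP4 minus LDN in FOXA2-negative cells.

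Whether the fraction difference itself changed with treatment was tested as an interaction, and no member passed any of the 3 interactions, in which 0.00561%, 0.00561% and 0.0337% of all genes were called. The lowest p-values were those of Tubb3, whose FOXA2-positive minus FOXA2-negative difference was 1.64 ± 0.45 less negative in BMP4 than in RA (unadjusted p = 0.00135 by edgeR, adjusted p = 1.0), and Hes6, with 1.14 ± 0.39 for BMP4 minus LDN (unadjusted p = 0.00729, adjusted p = 0.779). DESeq2 called 0 members in all 3. The Tubb3 call in RA and its absence in BMP4 are therefore not shown to differ.

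Other genes of the pathway were taken from lists by role, chosen like the set itself with earlier results of these data known. In the average, 7.62% of all tested genes were called (3.12% higher and 4.5% lower), and 47.4% were above 0. Whether any list differed from all genes was not tested. Of 11 other proneural bHLH factors, 4 were high enough to test, and 1, Olig3, a factor of dorsal progenitors, was lower in FOXA2-positive cells on average (-2.42 ± 0.46, adjusted p = 0.00174 by edgeR), from 22.1 to 3.05 CPM in RA, 12.2 to 4.99 in BMP4 and 31.4 to 3.52 in LDN. Neurod1, Neurog3 and Atoh1 did not pass, and the median of the 4 was -1.85. Levels were low, with 5 to 8 of the 11 genes at 0 in each library. The list summed to 2.41 to 62.4 CPM a library, Olig3 included. Neurod2 was at 0 in every library.

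Of 14 genes of the neurogenic cascade, 11 were tested and 2 fell in FOXA2-positive cells, with a list median of -0.34. Of all tested genes, 4.5% fell in the average. Gadd45g, a growth-arrest gene switched on in cells leaving the cycle, was at -3.0 ± 0.29 on average (SE, adjusted p = 4.11e-07 by edgeR). Its means were 46.7 ± 3.50 against 6.85 ± 4.72 CPM in RA, 43.0 ± 6.12 against 12.9 ± 5.36 CPM in BMP4 and 87.7 ± 45.9 against 3.86 ± 0.50 CPM in LDN (SD, n = 3 and 3, 3 and 3, 3 and 2). Every FOXA2-positive library was below every FOXA2-negative one. Within single treatments, 15.2%, 14.8% and 27.8% of all genes had no overlap between fractions in RA, BMP4 and LDN. Btg2, an antiproliferative gene of neurogenic divisions, was at -0.60 ± 0.14 (adjusted p = 0.00837). The Notch ligand gene Dll1 and the other 8 did not pass.

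Of 13 restraints on neurogenesis, all were tested, 2 rose in FOXA2-positive cells on average and none fell. Their median was 0.38, with 11 above 0. Of all tested genes, 3.12% rose, 4.5% fell and 47.4% were above 0. Whether the list differed from all genes was not tested. Hes1, the Notch effector that represses proneural genes, rose by 0.95 ± 0.12 (SE, adjusted p = 1.13e-05 by edgeR), from 106 ± 15.5 to 245 ± 28.8 CPM in RA. Id3, which sequesters E-proteins, rose by 0.76 ± 0.11 (adjusted p = 2.32e-05). The Id genes are direct targets of BMP signalling. Id1 averaged 55.6, 256 and 5.07 CPM in RA, BMP4 and LDN FOXA2-negative cells and 73.6, 249.8 and 8.56 CPM in FOXA2-positive cells, and Id1, Id2 and Id3 were called in all 6 treatment comparisons, higher in BMP4 and lower in LDN. For BMP4 minus RA in FOXA2-positive cells, the Id1 call was lost without the RA library numbered 2 (adjusted p = 0.0624) or 3 (0.0593), and the Id2 call without RA 2 (0.0569), RA 3 (0.0558) or BMP4 1 (0.059). In the same 6 comparisons, only Map1b among the 7 tested members passed edgeR's test, and only for LDN minus RA. Sox1, a progenitor factor, fell in BMP4 against LDN in FOXA2-negative cells (-2.50 ± 0.41, adjusted p = 0.00253), and Sox3, a related progenitor factor, in FOXA2-positive cells (-1.95 ± 0.42, adjusted p = 0.0316). The Sox3 call was lost without the BMP4 library numbered 2 (adjusted p = 0.11) or 3 (0.192) or either LDN library (0.23 and 0.133).

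Of 20 other neuronal cytoskeleton genes, 19 were tested, 2 rose and 3 fell in FOXA2-positive cells on average. Of all tested genes, 3.12% rose and 4.5% fell. Dclk1, a doublecortin-like kinase, rose in FOXA2-positive cells on average by 1.28 ± 0.27 (SE, adjusted p = 0.00315 by edgeR) and Dpysl5 by 0.60 ± 0.19 (adjusted p = 0.0461). The growth-cone gene Gap43 was lower by -0.65 ± 0.11 (adjusted p = 0.00036), and the tubulin-binding stathmins Stmn2 by -0.98 ± 0.21 (adjusted p = 0.00375) and Stmn1 by -0.46 ± 0.12 (adjusted p = 0.0136), Stmn1 being named after its value was seen. Gap43 was also lower in BMP4 than in LDN, by -0.91 ± 0.18 in FOXA2-negative cells (adjusted p = 0.0288) and -0.99 ± 0.20 in FOXA2-positive cells (adjusted p = 0.018). The first Gap43 call was lost without any 1 of the 3 BMP4 libraries or the LDN library numbered 1 or 3 (adjusted p up to 0.192), and the second without the BMP4 library numbered 1 or 2 or either LDN library (up to 0.217). The Dpysl5 call was lost without any 1 of 11 of the 17 libraries (adjusted p up to 0.118), and the Stmn1 call without the LDN FOXA2-positive library numbered 3 (0.0856). The list median was 0.19. None of 8 tested neuronal RNA-binding protein genes passed, and of 11 tested neuron subtype transcription factors only Lhx1 did, rising by 1.31 ± 0.30 (adjusted p = 0.00611).

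**Figure D5:**
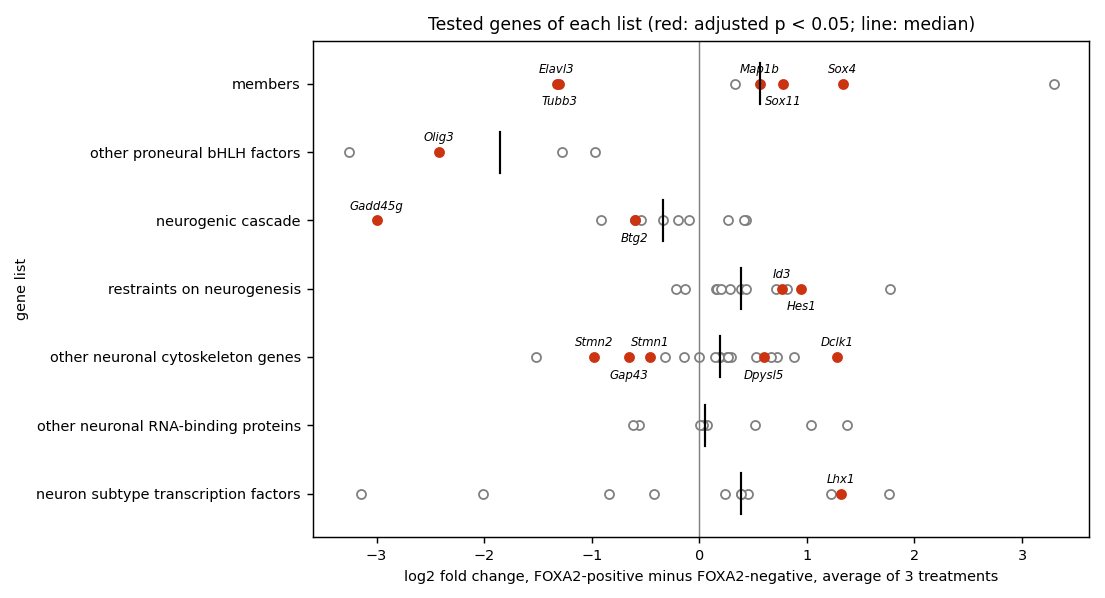
Average log2 fold change of FOXA2-positive minus FOXA2-negative cells for the tested genes of each list, with red points for an adjusted p below 0.05 and lines at list medians. The restraints on neurogenesis lie mostly right of 0 (median 0.38) and the neurogenic cascade mostly left (median -0.34). Called members and cytoskeleton genes lie on both sides. Of all tested genes, 7.62% were called and 47.4% were above 0, and whether a list differed from them was not tested.

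Markers of other cells moved with the fractions. Of all tested genes, 7.62% were called on average, 1.19% in RA, 0.921% in BMP4 and 0.994% in LDN. All 8 pluripotency markers were lower in FOXA2-positive cells on average, and their summed level ranged over 789-1121 CPM in FOXA2-negative and 301-416 CPM in FOXA2-positive RA libraries, 595-920 and 318-428 CPM in BMP4, and 705-975 and 343-367 CPM in LDN. Of 7 surface ectoderm markers 5 were lower on average, Krt8 among them, with 3 called in RA, 1 in BMP4 and 5 in LDN. Their summed level was 498-650 against 279-390 CPM in RA and 704-859 against 335-392 CPM in LDN, while in BMP4 the ranges of 693-722 and 629-711 CPM overlapped. Of 6 tested neural progenitor markers, Cdh2 alone passed, as higher, and the summed level was 184-290 against 268-359 CPM in RA, 145-199 against 187-232 CPM in BMP4 and 238-282 against 311-334 CPM in LDN. Of 9 tested neuron markers 1, Stmn2, also a gene of the cytoskeleton list, was lower, and the sums were 64.6-81.5 against 37.4-48.5 CPM in RA, 38.2-64.1 against 35.1-62.3 CPM in BMP4 and 57.2-91.3 against 55.6-62.8 CPM in LDN. Neural crest and mesoderm markers had 0 of 4 tested genes called each, with sums of 0.755-40.6 and 0-10.4 CPM over all libraries. Of 6 floor plate markers 4 were tested, all 4 above 0 on average (median 3.13), and Foxa2 alone passed. Their summed level, Foxa2 included, was 6.47-11.2 against 23.1-43.9 CPM in RA. It was 2.47-6.75 against 32.0-32.7 CPM in BMP4 and 8.35-13.6 against 53.4-65.9 CPM in LDN. Foxa2 is the gene that the fractions are labelled by, so its part of these values is not independent of the labels. In each library, 1 to 4 of the 6 floor plate markers were at 0. Of 5 tested endoderm markers Foxa1 and Sox17 were higher and Epcam lower. The part of these cells in the results for Sox4, Sox11, Map1b, Tubb3 and Elavl3 was not tested.

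The genes of the set also differed from one another across all 17 libraries. Likeness was measured as the root mean square difference (RMS, in log2 units) between profiles of log2 CPM, each centred on its own mean. Among members, Sox4 and Sox11 were closest (0.39), followed by Map1b and Hes6 (0.42), and Sox4 and Elavl3 were farthest apart (1.52). Tubb3 and Elavl3, both lower in FOXA2-positive cells, were still 1.06 apart. Among 9984 genes with at least 5 CPM, the profile most like Sox4 was that of Tcf4 (0.28), which encodes an E-protein, followed by Ptn and Dennd5b (0.29 each), and Tcf4 also stood among the nearest to Sox11 (0.27), after Nr6a1 (0.24) and before Wls (0.28). Nearest to Map1b were Nudt3 (0.23), Serpinh1 and Cyb5r3 (0.24 each), and to Hes6 Slc2a3, Mapk12 and Nmral1 (0.27 each). Nearest to Tubb3 were Helb and Fhod1 (0.50 each) and the simple-epithelial keratin gene Krt8 (0.51), and to Elavl3 Wnt8a (0.44), Pim2 (0.53) and Rbl2 (0.57). These are descriptions over libraries that share groups.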

How the data were processed

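SMART-Seq v2 libraries were made from total RNA, per the labels' protocols. The authors deposited raw counts per gene for each library. Tools listed in the submitters' processing notes are HTSeq 0.11.2, UMI-tools 1.0.0, DESeq2 1.26.0 and cutadapt 1.18, with mm10 as build. The sources used here do not give the aligner, annotation release or strand setting. Summary lines that name no gene took 49.3% to 54.4% of tallied reads and were left out. Symbols for 49326 genes came from GENCODE M21, and promoter windows from RefSeq for all 8 members.

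Groups came from the library titles. In R 4.3.3, genes were kept by filterByExpr of edgeR 4.0.16 (minimum count 10, minimum total 15), leaving 17813. After TMM scaling, all 6 groups entered 1 quasi-likelihood model (11 residual degrees of freedom, common biological coefficient of variation 0.632), with Benjamini-Hochberg adjustment over all tested genes and a threshold of 0.05. Approximate standard errors were taken as the size of the estimate over the root of its F statistic. The scripts were tested on simulated data.

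Members and lists were chosen with earlier results of these data known. Besides the members, up to 4 called genes of each list and comparison are named, by size of change; marker lists are given by counts and sums. The genes most like a member are the 3 nearest profiles (prior count 2).

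Deviations of same-numbered libraries from their group means, over genes of at least 20 CPM, correlated between fractions at 0.24 to 0.59 in RA. The limit set for pairing was 0.1. Differently numbered RA libraries were at -0.40 to 0.24. Number 1 stood clearly apart, and through the group means its deviation also moves numbers 2 and 3. These values therefore do not decide whether numbers 2 and 3 pair. In BMP4 same-numbered libraries were at 0.05 to 0.08 and differently numbered ones at -0.06 to -0.01. In LDN same-numbered libraries were at 0.06 and differently numbered ones at -0.06 to 0.005. Only RA reached the limit set for pairing. The main fit still used no block in any treatment, since no label says that numbers pair libraries. The block within treatment was run as an alternative. In BMP4 and LDN every same-numbered pair was above every differently numbered one. Deviations within a group cancel out, though, so a positive same-numbered value pushes the others down. With only 2 FOXA2-positive LDN libraries their values are exact opposites, so in LDN this order gives no separate evidence of pairing. Alternatives were DESeq2 1.42.0, RLE scaling, other filters, the compared groups alone, a replicate block, and libraries left out.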

Additional observations from a re-analysis of the deposited data

Results flagged for a closer look

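The Hes6 difference between fractions had opposite signs in BMP4 and LDN, but neither value passed. In log2 terms it was 0.84 ± 0.26 in BMP4 (SE, adjusted p = 0.155 by edgeR) and -0.30 ± 0.29 in LDN (adjusted p = 0.739). Libraries of the fractions did not overlap in 14.8% of all tested genes in BMP4 and 27.8% in LDN. All 3 BMP4 FOXA2-positive libraries (35.9 to 54.9 CPM) were above all 3 FOXA2-negative ones (16.3 to 32.8 CPM), and both LDN FOXA2-positive libraries (36.0 and 49.4 CPM) were below all 3 FOXA2-negative ones (51.5 to 53.2 CPM). The interaction was 1.14 ± 0.39 in log2 units (adjusted p = 0.779 by edgeR's quasi-likelihood test), so it did not pass, and it ranged from 0.89 to 1.37 over the alternatives. Groups of 2 or 3 libraries are too small for a test of single outlying libraries.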

How the results depend on the processing

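The average fraction difference kept 4 or 5 called members under every alternative that left at least 2 libraries in each group. Calls over all genes ranged from 1062 to 1736 there, against 1357 in the main fit. Fewer or more members were called elsewhere. Without a filter 4 were called in RA and 2 in LDN, while calls over all genes rose from 212 to 466 and from 177 to 460. Fitting the compared groups alone called 2 in the LDN fraction comparison, 0 in LDN minus RA of either fraction and 2 in BMP4 minus LDN of FOXA2-positive cells, where DESeq2 called 1 (calls over all genes 212, 4 and 9, 95, and 174, against 177, 7 and 37, and 57). Without both RA libraries numbered 1, LDN minus RA had 0 in either fraction (calls over all genes 9 and 42, against 7 and 37). Fits that left 1 library in FOXA2-positive LDN are not counted in what follows. Leaving out 1 library gave 2 to 3 members in RA, 1 in LDN and 4 to 5 on average. Calls over all genes there were 105 to 219 in RA, 106 to 163 in LDN and 1062 to 1343 on average. LDN minus RA had 0 to 1 members in either fraction, with 4 to 11 and 18 to 35 calls over all genes. The cause was not tested.

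With a replicate block within treatment, 4 members were called in RA and 2 in BMP4, where Map1b joined (adjusted p = 0.031 by edgeR). Calls over all genes went from 212 to 362 and from 164 to 282, and the block changed no other member call. In BMP4 and LDN same-numbered libraries of the 2 fractions correlated below the limit of 0.1, but above differently numbered ones. In LDN that order follows from the opposite deviations of 2 FOXA2-positive libraries and gives no separate evidence of pairing. Across treatments, same-numbered libraries correlated at a median of -0.01, and 3 of 16 pairs were above 0.1.

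Of 91 member values over all comparisons, 30 changed sign under some alternative, 20 of them not Dcx. None of the 30 was called. Of the 41 called values of context genes, 13 lost their call under some alternative. Low counts limit Neurog2, Dcx and Elavl3, and 2 libraries limit FOXA2-positive LDN.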
